A study of Mus musculus with 14 samples.

Results

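The Ly6 genes Ly6c2, Ly6c1, Ly6a, Ly6d and Ly6e were followed as RNA counts in 14 libraries of cells sorted from the mouse submandibular gland, a salivary gland. They were chosen by name, 5 of the 54532 genes in the deposited count table, and Ly6c2 was already known from these data as higher in Tert+ than in Tert- cells after radiation. All mice were adult and of the genotype TertCreERT2/+ Rosa26LSL-tdTomato/+, in which a tamoxifen-inducible Cre at 1 Tert allele switches on a red reporter. Cells were DAPI-negative and EpCAM-positive in every group, and were sorted as tdTomato-positive (Tert+) or tdTomato-negative (Tert-). The gland had received 15 Gy of radiation (RT) or none. There were 3 libraries of each population without RT and 4 of each after RT. The time from RT to sorting, the time from tamoxifen and the number of animals are not given in the sources used here, so a p-value here speaks of the scatter among libraries, which may be technical.

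The titles set the groups here, and they matched the descriptions in 14 of 14 libraries. The cell type field stated the opposite population in 14 of 14, so every direction between Tert+ and Tert- rests on the titles. Tert RNA without RT also ran against the titles, at 0.350 ± 0.314 CPM (counts scaled to a common library total) in the Tert+ libraries against 1.81 ± 0.566 CPM in the others (SD, n = 3 each), and after RT ran with them, at 3.58 ± 3.76 against 0.621 ± 0.718 CPM (SD, n = 4 each). Total counts ran from 5520412 to 15943597 per library. The sort used EpCAM, an epithelial surface protein, yet Epcam itself lay between 29.7 and 126 CPM, while the B cell gene Cd79a lay between 2134 and 3923 CPM and the leukocyte gene Ptprc between 1195 and 1638 CPM. The levels below therefore come from RNA in which leukocyte transcripts were abundant, and which cells held the Ly6 transcripts was not measured. In bulk RNA, fewer cells of a type and less RNA per cell cannot be told apart.

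Ly6 proteins are small surface proteins with a compact fold held by disulphide bonds, and most are tied to the membrane by a glycosylphosphatidylinositol (GPI) anchor. Many of the mouse genes stand in a cluster on chromosome 15. Ly6c1 and Ly6c2 encode the Ly6C antigen, used to sort monocytes, neutrophils and memory T cells. Ly6a encodes Sca-1, a marker of blood stem cells that activated lymphocytes also carry and that interferon induces. Ly6d marks lymphoid progenitors on the way to B cells and is also made in stratified epithelia. Ly6e is an interferon-inducible member that affects the entry of several viruses into cells.

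The 5 genes lay on chromosome 15 of the mm10 build, in the order Ly6d (ENSMUSG00000034634, 74762056 to 74763620, minus strand), Ly6e (ENSMUSG00000022587, 74955051 to 74959905, plus strand), Ly6a (ENSMUSG00000075602, 74994877 to 74998031, minus strand), Ly6c1 (ENSMUSG00000079018, 75044018 to 75048830, minus strand) and Ly6c2 (ENSMUSG00000022584, 75108158 to 75111970, minus strand). All 5 are annotated as protein coding. Ly6c1 and Ly6c2 are close copies, so a read can belong to either. Their coding sequences in the main GENCODE transcripts, 396 bases each, were identical at 387 positions (97.7%). Of the 9 differences, 6 fall in coding bases 1 to 120, and the longest run without a difference is 188 bases. This stretch is shown because it holds most of the coding differences of the pair, with the differing bases in capitals.
Ly6c2: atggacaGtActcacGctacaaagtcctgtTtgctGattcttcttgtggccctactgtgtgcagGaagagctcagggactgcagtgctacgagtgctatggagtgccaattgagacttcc
Ly6c1: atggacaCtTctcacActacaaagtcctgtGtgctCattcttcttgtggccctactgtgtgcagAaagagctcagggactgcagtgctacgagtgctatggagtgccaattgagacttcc

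The other coding sequences were further apart. Ly6a matched Ly6c2 at 81.7% and Ly6c1 at 82.0% of aligned positions, and its neighbour Ly6i at 86.4%. Ly6d and Ly6e matched each other at 53.2%, and Ly6c2 at 52.0% and 50.6%. Over whole transcripts, 33.0% of the 50-base windows of Ly6c2 and 36.7% of those of Ly6c1 also occurred in a transcript of another gene, against 8.05% for Ly6a and 0 for Ly6d and Ly6e. With windows of 150 bases the shares were 5.79% for Ly6c2 and 5.61% for Ly6c1. Read length and the counting of shared reads are not given in the sources used here, so the split between Ly6c1 and Ly6c2 is less certain than the levels of Ly6a, Ly6d and Ly6e.

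Outside the coding part the pair was less alike. RefSeq promoter windows (build GRCm38.p6, 300 bases around a start site) were found for Ly6c2 and Ly6c1, 2 of the 5 genes, with 2 windows each. The first of each pair is shown because the levels of these close copies differed between libraries. The windows were identical at 62.3% of 334 aligned positions. Capitals mark GAGGAAGT, the site preferred by PU.1, an ETS factor of myeloid and B cells, searched on both strands.
Ly6c2 promoter, chr15:75111922-75112221, minus strand: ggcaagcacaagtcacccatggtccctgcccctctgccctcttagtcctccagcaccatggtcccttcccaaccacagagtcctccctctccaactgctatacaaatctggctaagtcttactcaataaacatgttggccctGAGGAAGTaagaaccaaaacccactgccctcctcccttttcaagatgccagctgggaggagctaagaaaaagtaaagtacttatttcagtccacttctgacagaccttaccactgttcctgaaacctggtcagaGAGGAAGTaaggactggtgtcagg
Ly6c1 promoter, chr15:75048788-75049087, minus strand: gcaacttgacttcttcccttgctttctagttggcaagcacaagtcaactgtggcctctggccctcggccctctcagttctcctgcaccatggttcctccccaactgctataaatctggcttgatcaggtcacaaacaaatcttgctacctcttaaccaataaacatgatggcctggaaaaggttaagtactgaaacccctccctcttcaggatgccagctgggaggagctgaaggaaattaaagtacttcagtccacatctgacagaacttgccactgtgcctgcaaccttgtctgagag

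The Ly6c2 window held GAGGAAGT at 2 places and the Ly6c1 window at 0. The count depended on the start site, since the other Ly6c1 window, chr15:75048614-75048913, held 1 match and the other Ly6c2 window again held 2. Of 32851 mouse promoter windows, 3.20% held the motif. The core of the interferon-stimulated response element and the interferon gamma activated site TTCNNNGAA, both searched on both strands, were not found in the 4 windows, and 3.44% and 8.30% of all windows held them.

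The members differed widely in level. Scaled by gene length, the median over the 14 libraries was 1498 CPM per kilobase for Ly6d, 269 for Ly6e, 198 for Ly6a, 15.8 for Ly6c2 and 1.63 for Ly6c1. The ranges of Ly6e and Ly6a met: in Tert+ after RT replicate 1 Ly6a was at 277 and Ly6e at 268 CPM per kilobase. The lengths are those of the table, and for Ly6c2 it gives 2740 bases where the main transcript has 822. For Ly6e it gives 3784 against 2281, for Ly6c1 1677 against 844 and for Ly6a 1205 against 819. Only for Ly6d do the lengths agree, at 744 bases. The other scaled levels, and the meeting of Ly6e and Ly6a, therefore depend on that choice. All other levels are CPM without length scaling, so their order between genes also depends on gene length. All 5 members passed the filter on low counts, and Ly6c1 had a count in 12 of 14 libraries.

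Ly6c2, of the Ly6C pair, varied most of the members counted in every library, by 23.2-fold from the lowest library to the highest. Without RT it stood at 47.4, 94.0 and 41.0 CPM in Tert+ and at 61.4, 23.1 and 17.2 CPM in Tert-. After RT it stood at 70.1, 45.7, 46.8 and 70.2 CPM in Tert+ and at 8.70, 9.86, 7.67 and 4.06 CPM in Tert-. The 4 Tert- libraries after RT were the lowest of the 14, below every other library, and the other groups overlapped each other. Behind those 4 values stood 48, 76, 58 and 47 reads.

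**Figure D1:**
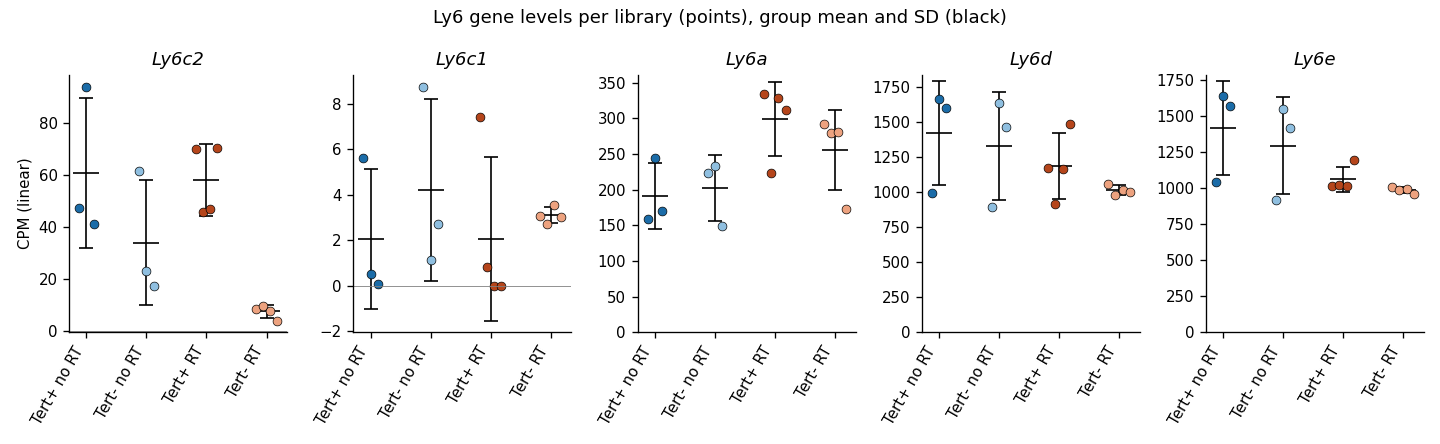
Level of each Ly6 gene in CPM (linear axis, one scale per gene) in each library (points), by group, with the group mean and SD in black. The 4 Tert- libraries after RT sit between 4.06 and 9.86 CPM for Ly6c2, below all others, while the groups overlap for Ly6d.

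The first comparison set Tert+ against Tert- cells without RT, and no Ly6 member passed the threshold (0 of 5 at an adjusted p of 0.05, edgeR; 0.0377% of the 15915 genes tested passed). At an unadjusted p under 0.05 there were 0 of 5, and 0 of 5 in DESeq2 and in limma voom. Of all genes 716 had an unadjusted p under 0.05, and DESeq2 called 72 and limma voom 22. Ranges did not overlap for 0 of 5 members and for 8.87% of all genes. Ly6c2 averaged 60.8 ± 28.9 CPM in Tert+ against 33.9 ± 24.0 CPM in Tert- (SD, n = 3 each), a log2 difference of 0.84 (SE 0.45, edgeR adjusted p = 1). No library of this comparison was used in the one that made Ly6c2 known. Its SE and p do rest on a spread estimated over all 14 libraries, those after RT included. The unadjusted edgeR p was 0.0781, and 0.141 with only these groups fitted. Ly6a, Ly6d and Ly6e had log2 differences of -0.08 (SE 0.24), 0.10 (SE 0.23) and 0.13 (SE 0.19).

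The second comparison set Tert+ against Tert- after RT. It is the one in which Ly6c2 became known, so its values are a description with no test. Ly6c2 averaged 58.2 ± 13.8 CPM in Tert+, where Tert- averaged 7.57 ± 2.51 CPM (SD, n = 4 each), a log2 difference of 2.96 (SE 0.42), or 7.76-fold, and the lowest Tert+ library was at 45.7 CPM against 9.86 CPM for the highest Tert- library. It was the only member past edgeR's threshold, where 0.0126% of all genes passed in either direction, and nothing is read from that count. Without Tert- replicate 4 its log2 difference was 2.71, the smallest of the values with 1 library left out.

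Ly6e was the other member whose ranges did not overlap after RT, and 4.88% of all genes had ranges that did not. It stood at 1016, 1021, 1016 and 1194 CPM in Tert+ and at 1012, 991, 994 and 959 CPM in Tert-. The groups nearly touched, and the log2 difference of 0.10 (SE 0.16) did not pass the test (edgeR adjusted p = 0.970). Ly6a was at 299 ± 51.7 against 256 ± 56.1 CPM and Ly6d at 1188 ± 234 against 1015 ± 34.8 CPM (SD, n = 4 each), with edgeR adjusted p-values of 0.916 and 0.908.

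The third comparison asked what RT did in Tert+ cells, and 0 of 5 members passed in edgeR, where 1.98% of all genes did. Without adjustment 2 members had a p under 0.05, and DESeq2 put 1 and limma voom 0 past the threshold. Of all 15915 genes, 2859 had an unadjusted p under 0.05, and DESeq2 called 1057 and limma voom 457. Ranges did not overlap for 0 of 5 members and for 15.5% of all genes. Ly6c2 was at 58.2 ± 13.8 CPM after RT (n = 4) and 60.8 ± 28.9 CPM without (SD, n = 3), a log2 difference of -0.06 (SE 0.41, edgeR adjusted p = 0.966). The values after RT lay within the spread of those without.

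Ly6a, the Sca-1 gene, had the highest RT value of the members in Tert+. It stood at 159, 244 and 171 CPM without RT and at 334, 223, 329 and 311 CPM after RT. Replicates 1, 3 and 4 after RT lay above every library without RT, and replicate 2 fell inside their range. The log2 difference was 0.65 (SE 0.22, edgeR adjusted p = 0.147), and DESeq2 called it, with an adjusted p of 0.0482. Ly6e was at 1062 ± 88.5 CPM after RT against 1420 ± 328 CPM without (log2 -0.42, SE 0.17, edgeR adjusted p = 0.224), and Ly6d had a log2 difference of -0.26 (SE 0.21).

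The fourth comparison asked the same in Tert- cells, and Ly6c2 fell. It went from 33.9 ± 24.0 CPM without RT (SD, n = 3) to 7.57 ± 2.51 CPM after RT (SD, n = 4), a log2 difference of -2.18 (SE 0.43, edgeR adjusted p = 0.0294), and its ranges did not overlap. It was the 1 member of 5 past the threshold, where 1.62% of all genes passed, and the 1 member without overlap, where 18.9% of all genes had none. The 4 Tert- libraries after RT are those of the comparison that made Ly6c2 known, so this call is not independent of its choice. With 1 library left out, its edgeR adjusted p lay above the threshold when that library was replicate 2 of Tert- without RT (0.0654) or replicate 1 (0.0515), 2 (0.0598), 3 (0.0864) or 4 (0.0642) of Tert- after RT. Without Tert- no RT replicate 1, the library with 61.4 CPM, it still passed (0.0424) with a log2 difference of -1.41. With limma voom the adjusted p was 0.0867, and with the Tert- libraries fitted alone 0.0614.

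The other members did not pass in Tert- cells. Ly6a stood at 224, 233 and 149 CPM without RT and at 292, 279, 281 and 172 CPM after RT (log2 0.34, SE 0.22, edgeR adjusted p = 0.440). Replicates 1, 2 and 3 after RT lay above all 3 without RT, and replicate 4 lay within their range. Ly6d was at 1015 ± 34.8 CPM after RT (n = 4) and 1333 ± 388 CPM without (SD, n = 3), with an edgeR adjusted p of 0.335. Ly6e was at 989 ± 22.2 against 1297 ± 335 CPM, a log2 difference of -0.39 (SE 0.18, edgeR adjusted p = 0.241), and passed at 0.0418 without Tert- no RT replicate 1, which at 918 CPM was the lowest of the 14 libraries.

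The difference between the RT effects was fitted directly. For Ly6c2 it contains the comparison after RT that made the gene known, so its p is not independent of that choice. For Ly6c2 the RT effect in Tert+ minus that in Tert- was 2.12 on the log2 scale (SE 0.60), with an unadjusted p of 0.00304 and an edgeR adjusted p of 1.00. No gene of the 15915 passed (0%), and 578 had an unadjusted p under 0.05. DESeq2 and limma voom called 0 of the 5 members. That Ly6c2 fell in Tert- and did not pass in Tert+ is therefore not shown to be a difference between the populations. The values for Ly6a, Ly6d and Ly6e were 0.30 (SE 0.31), 0.13 (SE 0.30) and -0.03 (SE 0.25).

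**Figure D2:**
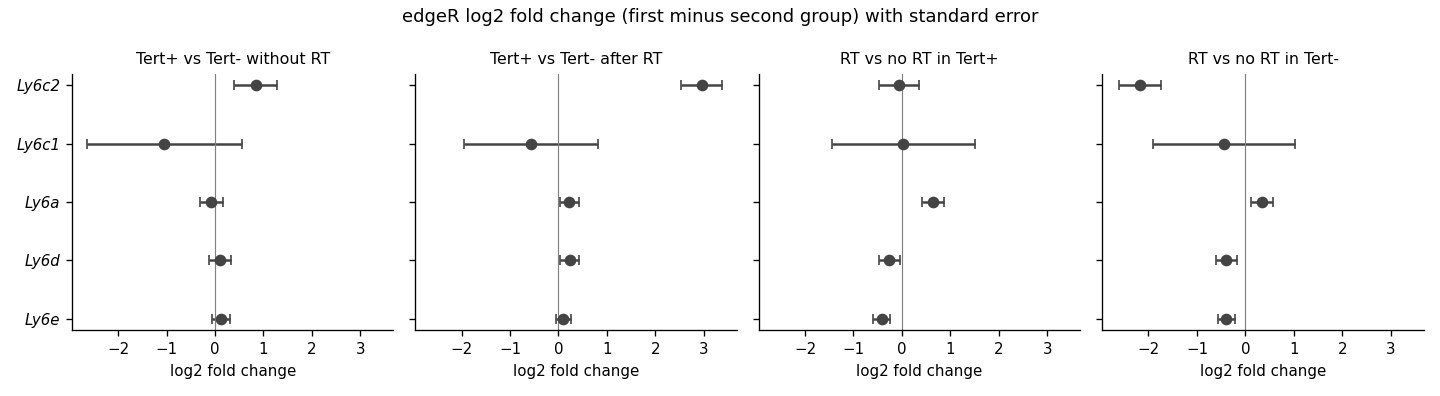
edgeR log2 fold change of each member (point) with its standard error (bar) in 4 comparisons, as first group minus second. Ly6c2 is at 2.96 for Tert+ against Tert- after RT and at -2.18 for RT in Tert-, and Ly6c1 has the widest bars.

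Ly6c1, the close copy of Ly6c2, was counted at 0 to 119 reads per library. It stood at 5.62, 0.506 and 0.0759 CPM in Tert+ and at 8.76, 1.14 and 2.73 CPM in Tert- without RT. After RT it stood at 7.41, 0.808, 0 and 0 CPM in Tert+ and at 3.08, 2.72, 3.57 and 3.02 CPM in Tert-. The 4 Tert- libraries after RT were close together while the other groups spanned wide ranges. A count of 0 allows up to 0.409 and 0.257 CPM in those 2 libraries. No comparison gave a call, and the standard errors were 1.38 to 1.60 on the log2 scale in the 4 comparisons of groups.

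The share of Ly6c1 among the reads of the pair was highest in Tert- cells after RT. It was 26.2% (95% Wilson interval 17.0 to 38.0), 21.6% (14.6 to 30.8), 31.8% (22.8 to 42.3) and 42.7% (32.5 to 53.5) in those 4 libraries. In Tert- without RT it was 12.5%, 4.69% and 13.7%. In Tert+ it was 10.6%, 0.535% and 0.185% without RT and 9.56%, 1.74%, 0% and 0% after RT. The pair of zeros rests on 0 of 343 and 0 of 821 reads, which allow shares of up to 0.875% and 0.365%. The lowest share in Tert- after RT, 21.6%, lay above the highest of the other 10 libraries, 13.7%. The share carries the Ly6c2 values by which the gene was chosen and is a description. Intervals and limits cover counting error only, because reads with no molecular identifier can be copies of 1 molecule.

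**Figure D3:**
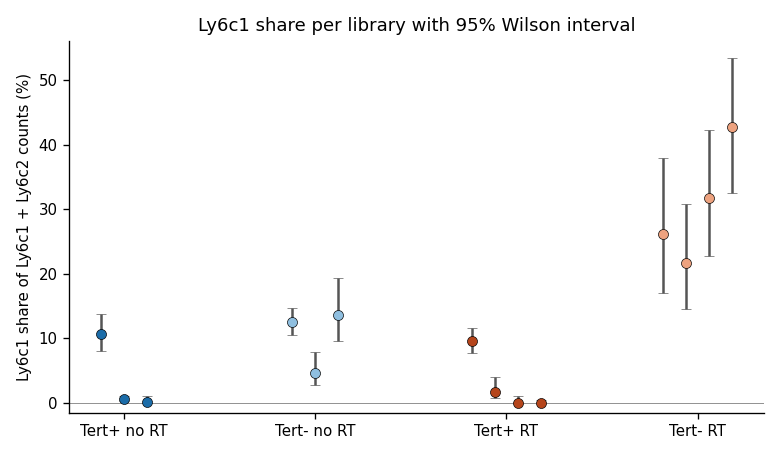
Percent of the reads of Ly6c1 and Ly6c2 together that were counted to Ly6c1, per library, by group, with 95% Wilson intervals. The 4 Tert- libraries after RT lie between 21.6 and 42.7%, above the other 10, which reach at most 13.7%.

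Ly6d and Ly6e, the members with the highest CPM, ordered the libraries alike in the groups without RT and not in either group after RT. Ly6d stood at 998, 1670 and 1606 CPM in Tert+ without RT and at 896, 1638 and 1465 CPM in Tert- without RT. Ly6e in the same libraries stood at 1043, 1643 and 1573 CPM and at 918, 1554 and 1420 CPM. Replicate 1 was the lowest of its group for both genes in both populations. After RT Ly6d stood at 1176, 919, 1166 and 1491 CPM in Tert+ and at 1063, 982, 1016 and 1000.1 CPM in Tert-, beside the Ly6e values given above. In Tert+ after RT, replicate 2 was the lowest for Ly6d at 919 CPM and the next to highest for Ly6e at 1021 CPM, and replicate 4 was the highest for both. In Tert- after RT, replicate 2 was the lowest for Ly6d at 982 CPM and replicate 4 the lowest for Ly6e at 959 CPM. The ratio of Ly6d to Ly6e lay between 0.901 and 1.25 in the 14 libraries, a description over points that share their depth and scaling. The B cell marker list was also lowest in replicate 1 of both groups without RT, at a summed 21477 CPM in Tert+ and 18945 CPM in Tert- against medians of 28000 and 26704, and its part in the Ly6d and Ly6e levels was not tested.

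The order of the group means differed between members, and most neighbours in it overlapped. For Ly6c2 it ran from Tert+ without RT through Tert+ after RT and Tert- without RT to Tert- after RT, and only the last step had no overlap. For Ly6a both groups after RT stood above both groups without RT, and every neighbouring pair overlapped. For Ly6d and Ly6e the order ran from Tert+ without RT through Tert- without RT and Tert+ after RT to Tert- after RT, and overlap was missing only in the last step of Ly6e. For Ly6c1 all neighbours overlapped.

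Other genes of the Ly6 and uPAR family were mostly low. Of 38 listed, 33 were in the table, 9 of those had no count in any library, 13 had a count but did not pass the filter, and 11 were tested. None of the 11 passed in any of the 5 comparisons in edgeR, DESeq2 or limma voom. In the order of the comparisons, 2, 1, 1, 4 and 0 of them had an unadjusted p under 0.05. Of all 15915 genes, 716, 1176, 2859, 2995 and 578 did. The median log2 differences of the 11 were -0.20, 0.49, -0.42, -0.49 and 0.21, where the medians of all genes lay between -0.02 and 0.01. Plaur, the urokinase receptor, had the highest CPM without length scaling, with a median of 695 over the 14 libraries. Bambi, a decoy receptor of the TGF-beta family, had a median of 50.3 CPM, Lynx1, a modulator of acetylcholine receptors, 15.9 CPM, Ly6k 12.6 CPM, and Cd59a, an inhibitor of complement lysis, 6.76 CPM. Ly6i had 3.53, Ly6g5b 1.61, Cd177 1.54, Ly6g6e 0.693, Lypd6b 0.0611 and Ly6g6d 0.0437 CPM. Ly6g, the neutrophil antigen, which lies between Ly6c2 and Ly6f on chromosome 15, had 11 reads in all.

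Ly6i, the neighbour of Ly6a, was the tested family gene whose coding sequence was aligned with the members. Without RT it averaged 11.9 ± 11.3 CPM in Tert+ against 3.01 ± 2.03 CPM in Tert- (SD, n = 3 each), and at 5.01 ± 2.86 and 0.997 ± 0.289 CPM after RT (SD, n = 4 each). After RT the Tert+ libraries lay between 2.05 and 8.46 CPM and the Tert- libraries between 0.725 and 1.30 CPM, without overlap, as for 4.88% of all genes. The log2 differences were 1.97 (SE 0.81) without RT and 2.31 (SE 0.74) after RT, and neither passed, with edgeR adjusted p-values of 1 and 0.459.

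Plaur had the opposite sign. It was at 414 ± 138 CPM in Tert+ and 684 ± 315 CPM in Tert- without RT, and at 665 ± 53.2 and 947 ± 185 CPM after RT, and the edgeR adjusted p-values ran from 0.234 to 1 over the 5 comparisons.

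The enzymes that build the GPI anchor carried by Ly6 proteins were taken as a list of 28 tested genes. Dpm1, a subunit of the enzyme that makes the mannose donor for the anchor and for glycosylation, rose with RT in both populations. It went from 17.6 ± 6.30 CPM (n = 3) to 39.8 ± 7.89 CPM (SD, n = 4) in Tert+, an edgeR adjusted p of 0.0375, and from 21.9 ± 3.95 to 52.5 ± 10.1 CPM in Tert-, an edgeR adjusted p of 0.0327. No other gene of the list passed in the 4 comparisons of groups. With RT that made 1 of 28 in each population, where 1.98% of all genes passed in Tert+ and 1.62% in Tert-. At an unadjusted p under 0.05 there were 4 of 28 in each, and 2859 and 2995 of all 15915 genes. DESeq2 and limma voom called 1 each in both. The list's median log2 differences with RT were -0.06 in Tert+ and -0.19 in Tert-. Without RT and after RT, 0 genes of the list passed between Tert+ and Tert- in edgeR, DESeq2 or limma voom. At an unadjusted p under 0.05 there were 0 and 1, and 716 and 1176 of all 15915 genes. Pigs, a subunit of the transamidase that attaches the anchor, had the highest mean CPM, at 142 ± 34.3 CPM in Tert+ and 114 ± 13.6 CPM in Tert- after RT.

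Genes induced by interferon, among which Ly6a and Ly6e are usually counted though neither was in the list, rose in part with RT. In Tert+ cells 4 of 40 passed in edgeR, all higher, where 1.98% of all genes passed in either direction. At an unadjusted p under 0.05 there were 21, with 13 called by DESeq2 and 5 by limma voom. The list's median log2 difference was 0.83 where that of all genes was 0.00. Mx1, an antiviral GTPase, went from 0.822 ± 0.431 to 12.3 ± 6.97 CPM (edgeR adjusted p = 0.0156), and its relative Mx2 rose by 4.14 on the log2 scale (SE 0.93, edgeR adjusted p = 0.0372). Xaf1 went from 30.2 ± 8.89 to 74.8 ± 10.3 CPM and Trim30a from 84.4 ± 21.5 to 169 ± 29.9 CPM. In Tert- cells 0 of 40 passed in edgeR, with 14 at an unadjusted p under 0.05, 8 by DESeq2 and 1 by limma voom, and the median was 0.54. Beside these values, Ly6a had log2 differences with RT of 0.65 and 0.34 and Ly6e of -0.42 and -0.39, so the signs of these 2 members were opposite. Between Tert+ and Tert-, 0 of the 40 passed in edgeR without RT (unadjusted 2, DESeq2 1, limma voom 0) and after RT (unadjusted 5, DESeq2 0, limma voom 0).

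Markers of cells that carry Ly6C stood beside the Ly6c2 values. After RT the 12 neutrophil genes summed to 49.9 to 389 CPM in Tert+ and 4.15 to 67.9 CPM in Tert-, and all 10 that were tested had a positive log2 difference, with a median of 3.04. None passed in edgeR, with 4 at an unadjusted p under 0.05, 1 by DESeq2 and 0 by limma voom. S100a8, a calcium-binding protein of neutrophils, was at 59.6 ± 43.1 CPM in Tert+ and 4.84 ± 4.78 CPM in Tert- after RT, and Elane, neutrophil elastase, was at 0 in every library. The 17 T cell genes summed to 181 to 574 CPM in Tert+ and 115 to 288 CPM in Tert-, with 17 of 17 positive and a median of 1.29. None passed in edgeR, with 3 at an unadjusted p under 0.05 and 0 by DESeq2 and by limma voom. The monocyte genes summed to 1252 to 1670 CPM in Tert+ and 959 to 1810 CPM in Tert-, which overlap, with a median log2 difference of 0.65, none past edgeR's threshold, 5 at an unadjusted p under 0.05 and 0 in DESeq2 and limma voom. Summed genes of plasmacytoid dendritic cells, which also carry Ly6C, ran from 1153 to 1653 CPM in Tert+ and from 1029 to 1286 CPM in Tert-. Of these, 12 of 12 tested had a positive log2 difference, with a median of 0.33. None passed in edgeR, with 4 at an unadjusted p under 0.05, 2 by DESeq2 and 0 by limma voom. Of all 15915 genes, 1176 had an unadjusted p under 0.05 between Tert+ and Tert- after RT, and DESeq2 called 109 and limma voom 0. The part of these markers in the Ly6c2 difference was not tested.

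With RT in Tert- cells, where Ly6c2 fell, the neutrophil genes had 10 of 10 negative log2 differences (median -2.82), the T cell genes 17 of 17 (median -1.87) and the tested monocyte genes 12 of 14 (median -1.69). None of these passed in edgeR, with 6, 11 and 8 at an unadjusted p under 0.05, 1, 3 and 5 called by DESeq2 and 0, 0 and 1 by limma voom. The plasmacytoid dendritic cell genes were mixed, with 8 negative and 4 positive (median -0.78). Of these 12, 1 passed in edgeR, Cox6a2, where 1.62% of all genes did. At an unadjusted p under 0.05 there were 5, with 5 by DESeq2 and 0 by limma voom. Of all 15915 genes, 2995 had an unadjusted p under 0.05 in this comparison, and DESeq2 called 1202 and limma voom 386. Without RT, the neutrophil genes of Tert- ran from 22.4 to 684 CPM and the T cell genes from 258 to 1025 CPM, and replicate 1 was the library highest in both and highest in Ly6c2. In Tert+ without RT, replicate 1 was also the highest in both lists, at 266 and 1118 CPM. Ly6c2 in that group was instead highest in replicate 2, at 94.0 CPM against 47.4 CPM in replicate 1. The part of these lists in the Ly6c2 values was not tested here either. In Tert+ cells, where Ly6c2 had a log2 difference with RT of -0.06, the neutrophil, T cell and monocyte medians were 0.64, -0.81 and -0.78. The plasmacytoid dendritic cell median was -0.51.

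**Figure D4:**
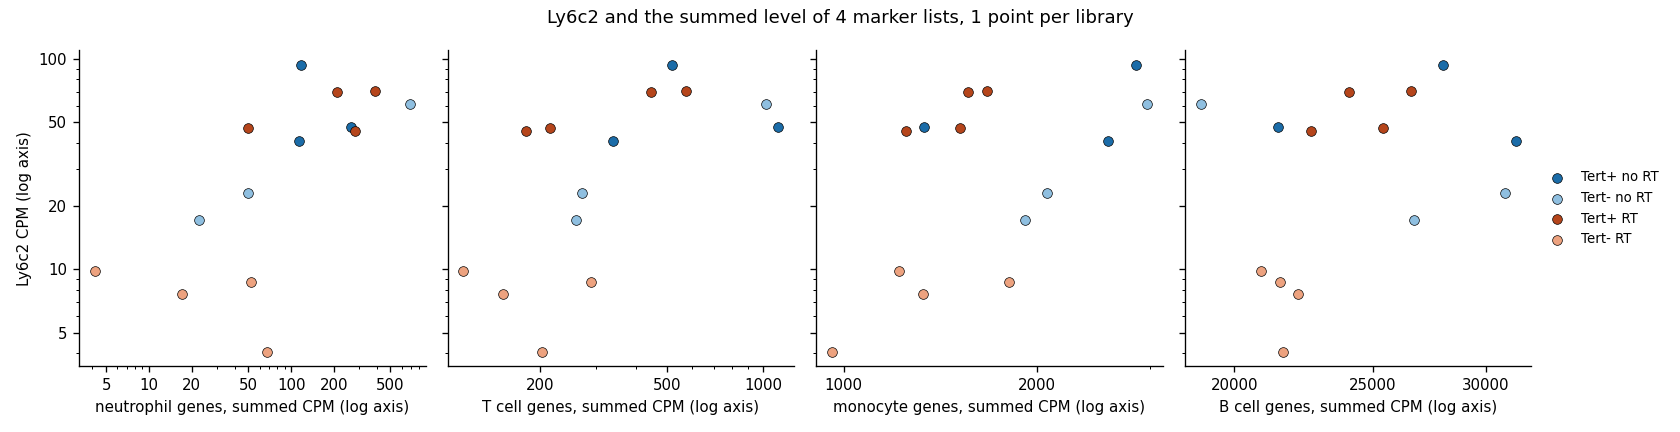
Ly6c2 level against the summed level of 4 marker lists, both in CPM on log axes, 1 point per library, coloured by group. The Tert- libraries after RT hold the lowest Ly6c2 levels, and they overlap Tert+ libraries after RT in neutrophil, T cell and monocyte sums but not in the B cell sum, at 20898 to 22169 against 22618 to 26594 CPM.

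The remaining calls among the cell type lists stand beside the shares of all 15915 genes. In edgeR 0.0377% passed between Tert+ and Tert- without RT and 0.0126% after RT. With RT 1.98% passed in Tert+ and 1.62% in Tert-. At an unadjusted p under 0.05 there were 716, 1176, 2859 and 2995 genes in these 4 comparisons. Macrophage genes were lower in Tert+ than in Tert- without RT for Ms4a7 (1.33 ± 0.949 against 61.9 ± 8.63 CPM, edgeR adjusted p = 0.00503) and the complement gene C1qc (5.48 ± 6.96 against 321 ± 35.1 CPM, edgeR adjusted p = 0.0433), opposite in sign to Ly6c2. These were 2 of 11 tested, with 7 at an unadjusted p under 0.05, 4 by DESeq2 and 3 by limma voom. After RT 10 of 11 were lower in Tert+ (median -2.72) and 0 passed in edgeR, with 7, 2 and 0 by those counts. With RT in Tert- cells 10 of 11 were negative (median -0.93), the sign of Ly6c2 there. In that comparison 0 passed in edgeR, with 1, 0 and 3 by those counts. With RT in Tert+ 1 of 11 passed, Ms4a7, which rose to 7.75 ± 2.05 CPM. Among B cell genes the transcription factor Ebf1, 1 of 15 tested, rose with RT in Tert-, from 396 ± 56.2 to 591 ± 53.5 CPM (edgeR adjusted p = 0.0425). Among the 11 plasma cell genes tested Creld2 fell with RT in Tert+, and Jchain, which joins antibody subunits, fell in Tert- from 44.3 ± 29.3 to 0.594 ± 0.713 CPM (edgeR adjusted p = 0.0428). Of the 12 plasmacytoid dendritic cell genes tested, Spib and Irf8 fell with RT in Tert+ and Cox6a2 fell in Tert-. Spib went from 454 ± 35.0 to 204 ± 57.6 CPM. Of the endothelial, fibroblast and epithelial lists, 0 genes passed in edgeR in the 4 comparisons of groups, where at most 3 genes of a list had an unadjusted p under 0.05 and DESeq2 and limma voom called at most 1. Pecam1, an endothelial gene that leukocytes also express, was at 235 ± 33.4 CPM in Tert+ and 219 ± 59.8 CPM in Tert- after RT, and the fibroblast marker Pdgfra was at 0 in all libraries.

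Genes with the most similar patterns were found by the root mean square difference of log2 CPM, each gene centred on its own mean, over the 14 libraries and 8398 candidates. For Ly6c2 they were Gsr, glutathione reductase (0.681), Cfp, the complement factor properdin (0.716), and Ramp1, a receptor-modifying protein (0.775), where Ly6c2 itself varied by 1.36 about its mean. Gsr was at 22.6 ± 4.51 CPM in Tert+ against 3.91 ± 1.59 CPM in Tert- after RT, and Cfp at 48.5 ± 13.8 and 17.0 ± 5.49 CPM (SD, n = 4 each). Both were picked for their likeness to Ly6c2 over these same libraries, so their differences are no further evidence. For Ly6c1 the nearest were Mapk13 (1.28), Camk1 (1.30) and F11r (1.32), against a variation of its own of 1.82. For Ly6a they were Tlr7, a sensor of RNA (0.207), Rpl5, a ribosomal protein (0.217), and Cnot6l, a deadenylase (0.234), against 0.384.

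Ly6d and Ly6e had closer neighbours. Those of Ly6d were Arpc5, a subunit of the actin-nucleating Arp2/3 complex (0.0886), Igkc, the kappa light chain constant region (0.100), and Fcmr, the Fc receptor for IgM (0.114), where Ly6d varied by 0.319. Those of Ly6e were Mpp1 (0.0778), Msn, the membrane linker moesin (0.0964), and Ctsh, cathepsin H (0.104), where Ly6e varied by 0.288. Igkc was at 5362 ± 1156 and 4975 ± 1103 CPM without RT and at 4347 ± 555 and 3628 ± 243 CPM after RT, in Tert+ and Tert- respectively. The order of means was that of Ly6d, which is no further evidence, because Igkc was picked for its likeness over these same libraries.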

How the data were processed

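RNA of 14 libraries, made from 1 ng each by a protocol credited to Picelli per the labels, was measured by sequencing. The authors deposited raw counts of reads per gene. The aligner was HISAT2 and the build mm10, per the submitters' processing notes, and the counting program is not given in the sources used here. The tests used edgeR 4.0.16 under R 4.3.3: filterByExpr on the 4 groups (15915 genes), TMM scaling, 1 term per group over all 14 libraries, robust quasi-likelihood F tests (two-sided) and Benjamini-Hochberg adjustment over all genes tested, threshold 0.05. CPM is the count over the TMM-scaled total. The SE is the log2 fold change over the square root of F. Totals ran from 5520412 to 15943597. Alternatives were RLE scaling, DESeq2 1.42.0, limma voom 3.58.1, no filter, only the groups compared, a replicate block, Ly6c1 and Ly6c2 summed, and each library left out. Coding sequences came from GENCODE and promoters from RefSeq. Named were the 5 members, tested family genes, up to 4 list genes past the threshold per comparison or else the most abundant, and the 3 nearest patterns among genes averaging 3 or more in log2 CPM (prior count 2). List genes that did not pass are named in part. The members and the 13 lists were chosen with earlier results of these data known.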

Additional observations from a re-analysis of the deposited data

Results flagged for a closer look

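In 10 groups of 4 libraries (5 genes, both groups after RT), 3 libraries lay farther from the rest of their group than Dixon's 95% critical value for 4 values allows. Chance gives such a gap in about 5% of groups tested. Ly6c1 in Tert+ after RT was at 7.41 CPM in replicate 1, where the next library was at 0.808 CPM, a gap of 0.891 of the range. Ly6a in Tert- after RT was at 172 CPM in replicate 4, where the next was at 279 CPM, a gap of 0.888 of the range. Ly6e in Tert+ after RT was at 1194 CPM in replicate 4, where the next was at 1021 CPM, a gap of 0.972 of the range.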

How the results depend on the processing

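The number of members past the threshold for Tert+ against Tert- after RT, 1, was 0 with limma voom, with a replicate block, with a replicate block within RT state and with Ly6c1 and Ly6c2 summed, and 0 to 1 with a library left out (0 without replicate 1, 2 or 4 of Tert+ after RT or any replicate of Tert- after RT). The Ly6c2 difference was 2.71 to 3.11 with a library left out, 3.13 with limma voom and 2.51 for the summed pair. For RT in Tert+ the count was 1 with DESeq2 (Ly6a). For RT in Tert- it was 0 with limma voom and with only the groups compared, and 0 to 2 with a library left out. The main fit did not take same-numbered libraries of Tert+ and Tert- as pairs. Their column names are numbered consecutively, and whether they share a preparation is not given in the sources used here. Over all genes tested they correlated at -0.002 to 0.119 without RT and -0.049 to 0.052 after RT. A correlation over all genes, many with low counts, cannot exclude pairing. The block changed no other count of members called.

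Values that changed sign were small or those of Ly6c1. For RT in Tert+ Ly6c2 was 0.00951 with limma voom and 0.0143 with the replicate block, and Ly6c1 was -0.00951 with DESeq2 and -0.63 with limma voom. For RT in Tert- Ly6c1 was 0.81 with the replicate block. The Ly6c1 difference of RT effects was -0.58 with limma voom, -0.74 with the replicate block and -1.05 with the block within RT state. With a library left out, Tert+ against Tert- without RT ran from -3.78 to 0.0685 for Ly6c1, -0.29 to 0.0451 for Ly6a, -0.14 to 0.30 for Ly6d and -0.0863 to 0.32 for Ly6e, and from 0.38 to 1.58 for Ly6c2. RT in Tert+ ran from -0.28 to 0.40 for Ly6c2 and -2.99 to 2.76 for Ly6c1, and RT in Tert- from -0.89 to 0.69 for Ly6c1. The difference of RT effects ran from -2.58 to 3.20 for Ly6c1, -0.0811 to 0.35 for Ly6d and -0.22 to 0.17 for Ly6e. The causes were not tested. Ly6c1 had 0 to 119 reads per library, and libraries of like depth differed: Tert+ after RT replicates 1 and 4, with totals of 11181890 and 11642156, had 85 and 0.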
